A study of Mus musculus with 8 samples.

Results

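The 10 genes described here are a set of glycolysis and hypoxia-response genes, namely the glucose transporter genes Slc2a1 and Slc2a3, the hexokinase genes Hk1 and Hk2, Pfkp, Pgk1, Ldha, Pdk1, Bnip3 and Vegfa. They were chosen by symbol, matched to the gene identifiers of the count files through the GENCODE vM1 annotation of the NCBIM37 mouse genome. All 10 were found among the 37620 genes counted, and all 10 had enough reads to enter the tests, which covered 16961 genes. RNA-seq of 8 libraries of mouse pluripotent stem cells (PSCs) and their derivatives was examined, and levels are given as CPM, the count of a gene scaled to a common library total.

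The libraries form 5 groups. Of these, 4 are stem cell cultures. Mouse embryonic stem cells (mESCs) in 2i (CHIR99021, which inhibits GSK3, with PD0325901, which inhibits MEK) gave 1 library. Those in 2iJ (2i with a JAK inhibitor) also gave 1 library. Those in 2iJ+B-A (2iJ with BMP4 and an inhibitor of the receptor kinase ALK5) gave 3 libraries, from days 2, 5 and 11. A further 1 library held cells sorted for green fluorescence from a Cdx2-GFP reporter line on day 2 of 2iJ+B-A. In the methods of the study, mESCs of the R1 line were kept without feeder cells in medium with serum. Culture of the reporter line is not described there. The 2i and 2iJ libraries came from day 5. The fifth group is made of 2 libraries of mesoderm progenitors from days 3 and 4 of embryoid bodies, cell aggregates that differentiate in suspension. According to the methods of the study, the embryoid bodies were grown with Activin A, BMP4 and Wnt3a in a medium for which no serum is listed, and an inhibitor of Wnt secretion was present for the last day before the day 4 collection, so that these libraries differ from the stem cell cultures in medium and growth form as well as in fate. All libraries other than the sorted library came from the R1 mESC line. The days of a group were taken as its samples, so that the spread within a group includes change over time, and the labels do not say whether they were separate cultures.

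Totals of gene counts were between 19810855 and 31453888. A floor for reading levels was set at 3 counts, which was between 0.0954 and 0.151 CPM. The sorted library stood apart. In it 29.7% of read pairs were unmapped and 27.8% of uniquely aligned pairs lay outside exons, against 2.17% to 3.85% and 7.83% to 13.2% in the other libraries. Its line and the sort also differ from the others, and these cannot be told apart. The labels of the other groups were checked against marker genes. The summed level of 7 primitive streak and mesoderm markers was 1573 and 583 CPM in the mesoderm libraries of days 3 and 4. In the stem cell libraries it was between 11.5 and 59.0 CPM. The day 4 sum was mostly Kdr and Pdgfra, which rose from 67.8 and 145 CPM on day 3 to 305 and 240 CPM. The other 5 markers fell, among them T from 547 to 6.30 CPM and Eomes from 393 to 22.2 CPM. Eomes was at 19.0 CPM in 2i, and Tbx6 on day 4 (1.26 CPM) was below the sorted library (1.92 CPM). The summed level of 6 pluripotency markers was 900.2 and 83.9 CPM in mesoderm, against 2010.2 to 4070.3 CPM in the stem cell libraries. The day 3 library thus held more pluripotency marker RNA than the day 4 library, mostly Pou5f1 (701 and 35.4 CPM) and Nanog (153 and 9.72 CPM). Sox2 (21.6 and 13.9 CPM), Esrrb (6.20 and 3.91 CPM) and Zfp42 (10.6 and 6.69 CPM) were low on both days. Klf4 was higher on day 4 (7.85 and 14.2 CPM). In RNA of whole cultures, fewer cells of a type and less RNA per cell cannot be told apart.

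Glycolysis splits glucose into pyruvate. Glucose enters through transporters of the Slc2a family, hexokinases trap it as glucose-6-phosphate, phosphofructokinase commits it to the pathway, and phosphoglycerate kinase (Pgk1) makes ATP further down. Lactate dehydrogenase A (Ldha) turns pyruvate into lactate, and pyruvate dehydrogenase kinase (Pdk1) limits the use of pyruvate in mitochondria by switching off pyruvate dehydrogenase. Bnip3 takes part in the removal of mitochondria, and Vegfa is the growth factor that draws in blood vessels. When oxygen is short, the factors HIF1A and EPAS1 are no longer marked for destruction by the VHL protein, and with the partner ARNT they activate many of these genes through the core motifs ACGTG and GCGTG. Many cultured pluripotent stem cells are known for strong glycolysis.

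The start regions of 5 of the genes are shown, chosen after the values were seen. In 4 of these genes (Pgk1, Ldha, Pdk1 and Bnip3) levels moved together across the unsorted stem cell libraries. The remaining gene (Pfkp) had the largest difference between mesoderm and stem cell cultures. Each region is the 250 bases before the first-listed RefSeq start (GRCm38.p6), printed 5′ to 3′ along the gene and placed on NCBIM37 by a single exact match. Capitals mark ACGTG or GCGTG on either strand, so that a match on the other strand appears as CACGT or CACGC.
Pgk1, chrX:103382189-103382438, plus strand: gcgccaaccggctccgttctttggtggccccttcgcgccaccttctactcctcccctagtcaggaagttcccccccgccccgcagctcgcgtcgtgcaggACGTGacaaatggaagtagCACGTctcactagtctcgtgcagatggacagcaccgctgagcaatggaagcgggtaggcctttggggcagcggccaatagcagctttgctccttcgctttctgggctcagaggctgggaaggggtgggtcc
Ldha, chr7:54100924-54101173, plus strand: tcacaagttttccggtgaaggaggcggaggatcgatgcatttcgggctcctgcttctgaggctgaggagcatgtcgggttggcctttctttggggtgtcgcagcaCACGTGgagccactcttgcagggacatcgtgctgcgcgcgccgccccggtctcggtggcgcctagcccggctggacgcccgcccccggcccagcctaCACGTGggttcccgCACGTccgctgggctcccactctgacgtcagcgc
Pdk1, chr2:71711031-71711280, plus strand: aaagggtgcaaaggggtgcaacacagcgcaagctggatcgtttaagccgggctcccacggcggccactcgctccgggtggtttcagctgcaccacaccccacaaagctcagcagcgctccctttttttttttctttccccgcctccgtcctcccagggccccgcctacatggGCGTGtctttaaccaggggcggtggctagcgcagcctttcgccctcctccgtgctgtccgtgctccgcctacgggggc
Bnip3, chr7:146101190-146101439, minus strand: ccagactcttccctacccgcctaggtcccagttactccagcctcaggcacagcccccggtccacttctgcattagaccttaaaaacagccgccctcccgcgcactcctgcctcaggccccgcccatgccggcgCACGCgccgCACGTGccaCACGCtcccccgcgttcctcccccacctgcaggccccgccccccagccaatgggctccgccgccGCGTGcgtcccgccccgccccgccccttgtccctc
Pfkp, chr13:6648018-6648267, minus strand: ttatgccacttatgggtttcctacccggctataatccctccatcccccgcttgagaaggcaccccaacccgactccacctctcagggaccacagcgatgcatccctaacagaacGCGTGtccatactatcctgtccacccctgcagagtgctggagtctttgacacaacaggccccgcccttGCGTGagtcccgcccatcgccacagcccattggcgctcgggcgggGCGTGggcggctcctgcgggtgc

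The Pgk1 and Pdk1 windows end at the base before the annotated gene, and those of Bnip3 and Pfkp reach 13 and 6 bases into its first exon. The Ldha window lies inside an intron of a longer annotated Ldha transcript, ahead of the starts of the shorter ones. The Ldha and Bnip3 windows each held 5 matches, and those of Pfkp, Pgk1 and Pdk1 held 3, 2 and 1. The palindrome CACGTG, which is also the E-box motif, gives ACGTG on both strands and was counted as 2 of these matches. It occurred 2 times in the Ldha window and 1 time in that of Bnip3. RefSeq entries were used for 9 of the 10 genes, with 13 starts, and 10 of these windows held at least 1 match. Among all 32851 windows of the same length, 38.6% held at least 1 match, 16.7% at least 2, 6.58% at least 3 and 2.58% at least 4. The windows at the first-listed starts of Hk1 and Vegfa held none. Whether any of the matches is bound was not tested.

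**Figure D1:**
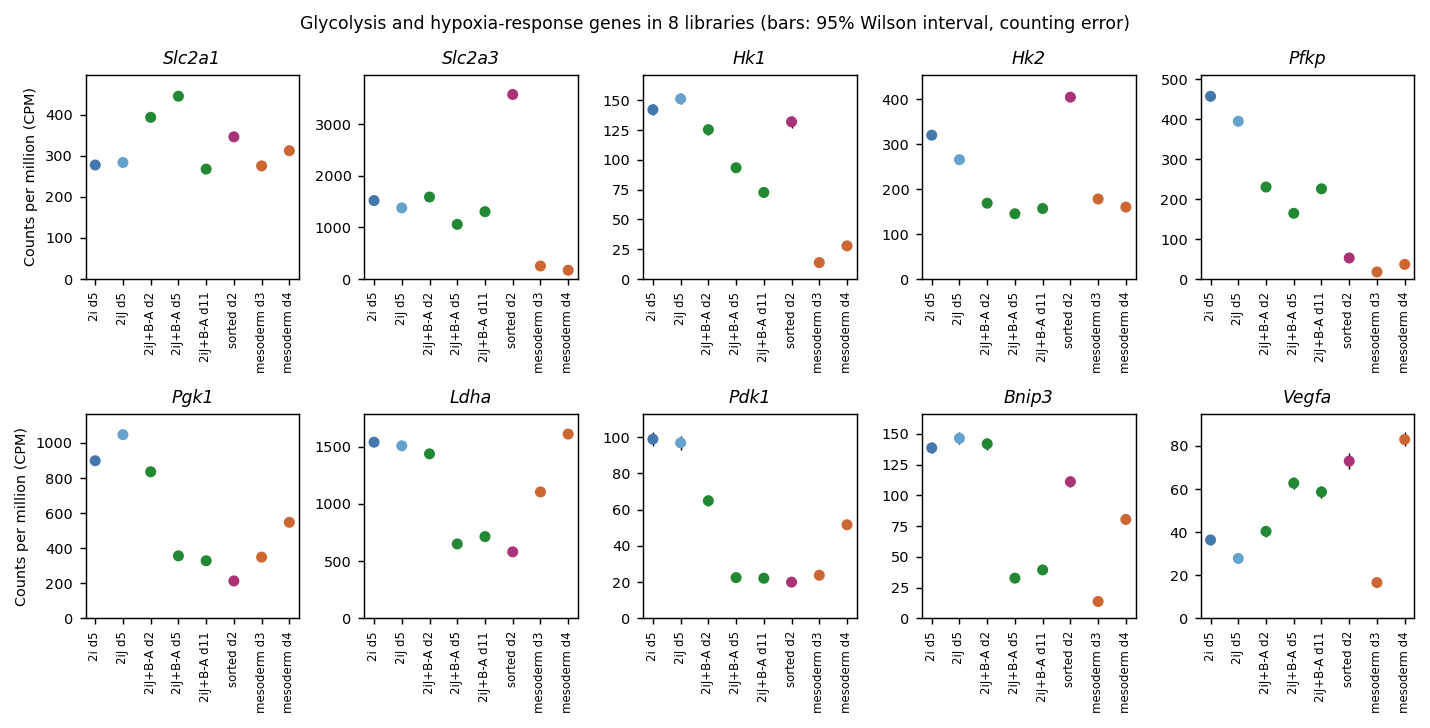
Level of each of the 10 genes (CPM, y axis, starting at 0) in each of the 8 libraries (x axis, coloured by group); bars are 95% Wilson intervals and cover counting error only. Slc2a3, Hk1 and Pfkp were lower in both mesoderm libraries than in every stem cell library, and Pgk1, Ldha, Pdk1 and Bnip3 were higher in 2i, 2iJ and day 2 of 2iJ+B-A than on days 5 and 11 of 2iJ+B-A.

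To ask how these genes differ between embryoid bodies and stem cell cultures, the mesoderm libraries were compared with the mean of the 2i, 2iJ and 2iJ+B-A groups. Slc2a3, Hk1 and Pfkp fell by between 6.27-fold and 12.5-fold in mesoderm, and Hk2 fell by 1.44-fold. The difference in the other 6 genes did not pass the test, and none of the 10 rose. Fold changes and adjusted p-values are from the quasi-likelihood test of edgeR with Benjamini-Hochberg adjustment over all 16961 genes. By this test 16.4% of all genes were lower and 15.7% were higher in mesoderm (32.1% in either direction), and among the 10 genes these were 4 and 0. The median log2 difference was -0.89 over the 10 genes and 0.01 over all genes tested. Over the 10 genes it was -0.49 without the day 3 mesoderm library, where 1 rose and 3 fell, and -1.39 without that of day 4. In 3 of the 10 genes both mesoderm libraries lay below all 5 unsorted stem cell libraries, a pattern found in 25.7% of all genes, and in none did both lie above, a pattern found in 22.9%. With the sorted library counted as well, the same 3 genes lay below all 6 stem cell libraries, as did 20.2% of all genes, and 0 lay above, against 19.3%.

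The transporters were compared first. Slc2a3 (ENSMUSG00000003153, chr6:122677827-122751658, minus strand) encodes GLUT3, a transporter with high affinity for glucose. Its level was 253 and 171 CPM in the mesoderm libraries of days 3 and 4, 1519 in 2i, 1377 in 2iJ, and 1588, 1059 and 1304 CPM on days 2, 5 and 11 of 2iJ+B-A. Both mesoderm libraries lay well below the lowest stem cell library. The group means were 212 ± 58.0 CPM (SD, n = 2) in mesoderm and 1369 ± 207 CPM (SD, n = 5) over the unsorted stem cell libraries. The log2 fold change was -2.77 ± 0.28 (SE; edgeR adjusted p = 0.00213). A pseudogene of 195 bases on the same strand (Gm4482) lies inside the annotated Slc2a3 gene.

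Slc2a1 (ENSMUSG00000028645, chr4:118781316-118809935, plus strand) encodes GLUT1, the transporter that most cells use for basal uptake. It was at 275 and 312 CPM in mesoderm, 278 in 2i, 284 in 2iJ, and 394, 445 and 268 CPM in 2iJ+B-A. The mesoderm values fell within the range of the stem cell libraries. The log2 difference was -0.10 ± 0.22 (SE; edgeR adjusted p = 0.76). Per kilobase of exon length, Slc2a3 made up between 48.4% and 68.3% of the combined level of both transporters in the 5 unsorted stem cell libraries, 26.5% in mesoderm on day 3 and 17.7% on day 4. The order of the 2 transporters by this measure was thus the same in 4 of these 5 libraries and opposite in mesoderm, with day 5 of 2iJ+B-A near equality.

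Among the hexokinases, the level of Hk1 (ENSMUSG00000037012, chr10:61731603-61842656, minus strand) was 13.8 and 27.8 CPM in mesoderm, 142 in 2i, 151 in 2iJ, and 125, 93.4 and 72.6 CPM in 2iJ+B-A. Hk1 is the widely used form and the groups did not overlap. Its log2 fold change was -2.65 ± 0.39 (SE; edgeR adjusted p = 0.00557). Hk2 (ENSMUSG00000000628, chr6:82675019-82724448, minus strand), the form induced by insulin and by low oxygen, was at 178 and 159.9 CPM in mesoderm, 319.7 in 2i, 265 in 2iJ, and 169, 145 and 157 CPM in 2iJ+B-A. The mesoderm libraries lay below 2i and 2iJ and overlapped with 2iJ+B-A. The log2 fold change of Hk2 was -0.52 ± 0.14 (SE; edgeR adjusted p = 0.0332). This call was lost in 6 of the 8 analyses that left out a library (adjusted p between 0.0679 and 0.176), with no filter on low counts (0.0611), and when the unsorted stem cell libraries were taken as a single group (0.469). Per kilobase, Hk1 made up 23.7% to 34.2% of the combined level of both hexokinases in the unsorted stem cell libraries, 5.16% in mesoderm on day 3 and 10.9% on day 4.

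Pfkp (ENSMUSG00000021196, chr13:6579014-6648023, minus strand) encodes the platelet form of phosphofructokinase. Its level was 17.7 and 36.9 CPM in mesoderm, 458 in 2i, 395 in 2iJ, and 231, 165 and 226 CPM in 2iJ+B-A. Every mesoderm value was below every stem cell value. The log2 fold change of -3.65 ± 0.39 (SE) was the largest among the 10 genes (edgeR adjusted p = 0.00235). As a share of the combined level of Pfkp, Pfkl and Pfkm per kilobase, Pfkp took 23.0% to 37.9% in the unsorted stem cell libraries and 3.32% and 3.52% in mesoderm. Pfkp shares 372 bases at its 3′ end with Pitrm1 on the other strand, and reads on the strand opposite to Pfkp made up 47.1% and 31.4% of the reads over Pfkp in mesoderm on days 3 and 4 and between 5.08% and 10.3% in the unsorted stem cell libraries. With counting that ignored strand, the log2 fold change was -3.62 (adjusted p = 0.00218).

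**Figure D2:**
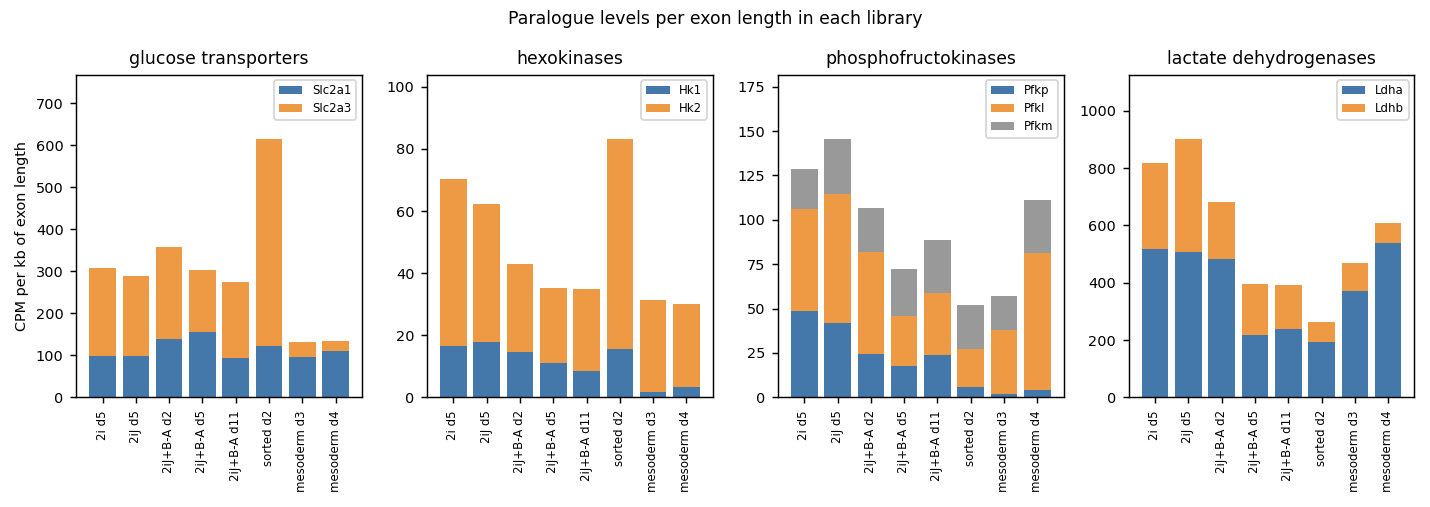
Stacked bars of CPM per kilobase of exon length (y axis, starting at 0) for the related genes of 4 families in each of the 8 libraries (x axis). Slc2a3, Hk1 and Pfkp took smaller shares of their families in mesoderm than in the unsorted stem cell libraries, and Ldha took 79.1% and 89.0% of the lactate dehydrogenases in mesoderm against 55.4% to 70.8%.

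The enzymes of the later steps were closer between the groups. Pgk1 (ENSMUSG00000062070, chrX:103382439-103399038, plus strand) was at 349 and 548 CPM in mesoderm, 899 in 2i, 1047 in 2iJ, and 836, 356 and 328 CPM in 2iJ+B-A. Ldha (ENSMUSG00000063229, chr7:54096845-54110997, plus strand) was at 1104 and 1609.9 CPM in mesoderm, 1539 in 2i, 1508 in 2iJ, and 1437, 650.1 and 714 CPM in 2iJ+B-A. In both genes the mesoderm values lay among those of the stem cell libraries, apart from Ldha on day 4, which was the highest of all. The log2 difference was -0.84 ± 0.45 (SE) for Pgk1 (edgeR adjusted p = 0.201) and 0.03 ± 0.37 (SE) for Ldha (adjusted p = 0.954). Processed copies of these genes took few reads, with at most 27 counts in a library for Pgk1-rs7 and at most 14 for Ldha-ps2.

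Pdk1 (ENSMUSG00000006494, chr2:71711281-71741915, plus strand) was at 23.8 and 51.7 CPM in mesoderm, 98.9 in 2i, 96.9 in 2iJ, and 64.9, 22.5 and 22.1 CPM in 2iJ+B-A. Bnip3 (ENSMUSG00000078566, chr7:146082519-146101202, minus strand) was at 13.7 and 80.5 CPM in mesoderm, 139 in 2i, 147 in 2iJ, and 142, 32.7 and 39.4 CPM in 2iJ+B-A. The spread between the 2 mesoderm libraries was wide for Bnip3, at 47.1 ± 47.2 CPM (SD, n = 2). The log2 difference between mesoderm and stem cell cultures was -0.93 ± 0.58 (SE) for Pdk1 (edgeR adjusted p = 0.257) and -1.29 ± 0.90 (SE) for Bnip3 (adjusted p = 0.307).

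Vegfa (ENSMUSG00000023951, chr17:46153942-46169326, minus strand) was at 16.6 CPM in mesoderm on day 3 and 83.0 CPM on day 4, 36.4 in 2i, 27.8 in 2iJ, and 40.4, 62.7 and 58.7 CPM in 2iJ+B-A. One mesoderm library was below and the other above every unsorted stem cell library. The log2 difference of 0.37 ± 0.58 (SE) did not pass the test (edgeR adjusted p = 0.658). It was -1.20 without the day 4 library (adjusted p = 0.0361) and 1.15 without the day 3 library (adjusted p = 0.0191).

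**Figure D3:**
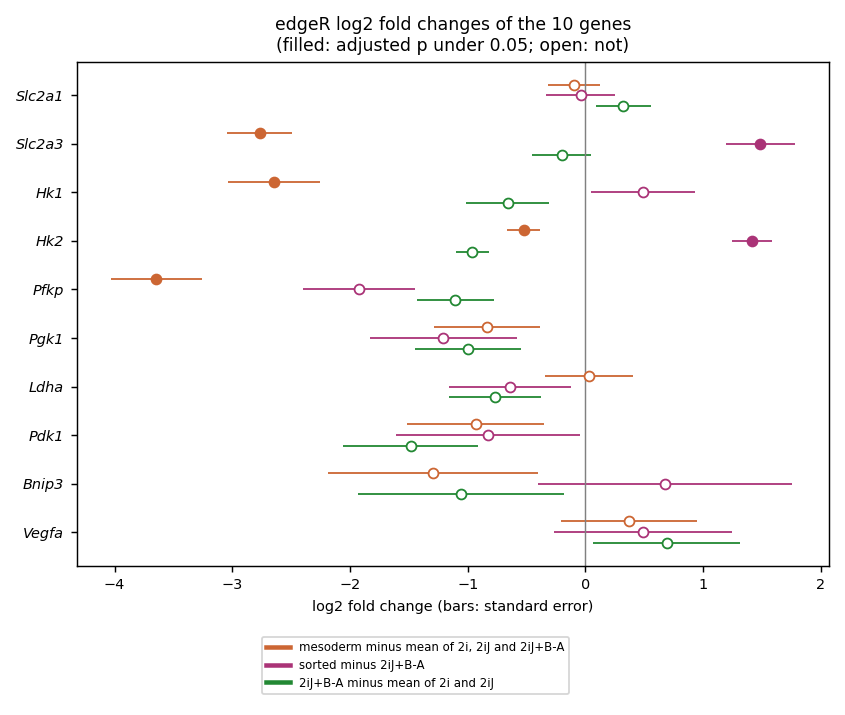
Log2 fold changes of the 10 genes (x axis) from edgeR in 3 comparisons, with bars of 1 standard error and filled points where the adjusted p-value was under 0.05. Filled points in the comparison of mesoderm with stem cell cultures are Slc2a3, Hk1, Pfkp and Hk2, all below 0, and in that of sorted cells with 2iJ+B-A they are Slc2a3 and Hk2, both above 0.

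The mesoderm libraries were also compared with 2iJ+B-A alone, the pair of groups that both had more than 1 library. This comparison shares the mesoderm and 2iJ+B-A libraries with the one above. Slc2a3, Hk1 and Pfkp again passed as lower, 3 of 10 genes against 15.5% of all genes, and 0 passed as higher against 11.5% (27% in either direction). Their log2 fold changes were -2.63, -2.21 and -2.91 (SE 0.28, 0.39 and 0.38; edgeR adjusted p = 0.0029, 0.0112 and 0.00482). The other 7 did not pass, with adjusted p-values between 0.337 and 0.953. Hk2 differed by 0.12 ± 0.14 (SE), Slc2a1 by -0.31 ± 0.23, Pgk1 by -0.17 ± 0.46, Ldha by 0.55 ± 0.39, Pdk1 by 0.05 ± 0.58, Bnip3 by -0.59 ± 0.90 and Vegfa by -0.09 ± 0.61, and the median over the 10 genes was -0.24 against -0.03 over all genes. In this and the previous comparison, the calls of Slc2a3, Hk1 and Pfkp held under every alternative that was run, with the largest adjusted p at 0.0396 for Hk1 without day 5 of 2iJ+B-A.

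The 2 mesoderm libraries differed from each other in several of the genes. There was 1 library on each day and no test. The level of Bnip3 was 5.87 times as high on day 4 as on day 3, that of Vegfa 5.00 times, that of Pdk1 2.17 times, that of Pfkp 2.08 times, that of Hk1 2.01 times and that of Pgk1 1.57 times. These 6 of the 10 genes were at least 1.5 times as high on day 4, compared with 21.1% of all genes tested, and 0 were at least 1.5 times as high on day 3, compared with 23.3%. Wilson intervals for counting error did not overlap in any of the 6, but the spread between cultures of the same day was not measured. Markers moved between the same libraries: the summed level of 6 blood and endothelium markers was 7.60 CPM and 79.4 CPM, and that of 5 endoderm markers was 102 and 238 CPM. The endoderm sum was mostly Gata4, at 96.6 and 226 CPM. Sox7 was also higher on day 4 (0.382 and 9.53 CPM), whereas Foxa2 (1.75 and 0.0646 CPM) and Afp (0.954 and 0.0969 CPM) were lower. On day 4 Foxa2 was under the floor of 3 counts and Afp was at it. Sox17 was at 2.07 and 2.10 CPM. The part of these markers in the difference was not tested.

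Within the stem cell cultures, 2iJ+B-A was compared with the mean of 2i and 2iJ. The groups differ in BMP4 and the ALK5 inhibitor, and also in the JAK inhibitor, which 2i lacks, and in time, since 2i and 2iJ were collected only on day 5. These cannot be told apart in this comparison. In edgeR, 0 of the 10 genes passed, with 3 of all genes (0.0177%) passing. At an unadjusted p under 0.05 there were 3 of the 10 (Hk2, Pfkp and Pdk1) and 2486 of all genes. The lowest adjusted p-value among the 10 was that of Hk2, with a log2 difference of -0.96 ± 0.14 (SE; adjusted p = 0.112). It lay at 145 to 169 CPM in 2iJ+B-A and at 265 and 319.7 CPM in 2iJ and 2i. Pfkp differed by -1.10 ± 0.33 (SE; adjusted p = 0.216). Both passed in the Wald test of DESeq2 (adjusted p = 8.75e-06 and 0.034), which called 1014 genes. The log2 differences of the other genes were 0.32 ± 0.23 (SE) for Slc2a1, -0.20 ± 0.25 for Slc2a3, -0.66 ± 0.35 for Hk1, -0.999 ± 0.451 for Pgk1, -0.77 ± 0.39 for Ldha, -1.48 ± 0.57 for Pdk1, -1.06 ± 0.87 for Bnip3 and 0.69 ± 0.62 for Vegfa, with edgeR adjusted p-values between 0.311 and 0.766. Between the single libraries of 2i and 2iJ, none of the 10 genes differed by 1.5 times or more, compared with 12.7% of all genes that were higher in 2iJ by that factor and 8.15% that were higher in 2i.

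The days of 2iJ+B-A were then set beside each other, with 1 library a day and no test. Pgk1, Ldha, Pdk1 and Bnip3 were each at least 1.5 times as high in 2i, in 2iJ and on day 2 of 2iJ+B-A as on both later days of 2iJ+B-A. This grouping was chosen after the values were seen. It held for 4 of the 10 genes and for 2.56% of all genes tested, with 5.57% showing the opposite. Within 2iJ+B-A alone, the day 2 level was at least 1.5 times both later levels in the same 4 genes and in 7.7% of all genes, with 13.1% showing the opposite. The level on day 2 of 2iJ+B-A was 4.34 and 3.61 times that on days 5 and 11 for Bnip3, 2.89 and 2.93 times for Pdk1, 2.35 and 2.54 times for Pgk1, and 2.21 and 2.01 times for Ldha. Vegfa was on the other side, at 40.4 CPM early and 62.7 and 58.7 CPM later, and Slc2a1 was between 268 and 445 CPM with no such order.

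The same grouping was looked for in the lists of related genes. Of the 15 other glycolysis enzymes tested it held for 6, among them Aldoa, with 1842 CPM in 2i, 1889 in 2iJ and 1477, 915 and 929 CPM on days 2, 5 and 11 of 2iJ+B-A, and Tpi1, with 634 and 673 CPM in 2i and 2iJ and 634, 306 and 309 CPM in 2iJ+B-A. Aldoa and Tpi1 act between phosphofructokinase and Pgk1 and were named after their values were seen. It held for 3 of 24 other hypoxia-response genes (Ankrd37, Bhlhe40 and Fam162a), for 2 of 10 genes of oxygen sensing (Egln3 and Hif3a), for 1 of 16 of pyruvate and lactate handling (Pdk4), for 0 of 8 VEGF ligands and receptors, for 0 of 6 other glucose transporters and for 0 of 17 enzymes of the tricarboxylic acid (TCA) cycle, the mitochondrial pathway that burns pyruvate. Epas1 and Flt1 showed the opposite pattern. Over all genes these shares were, as above, 2.56% and 5.57%. The summed level of 6 pluripotency markers was 2848, 2847 and 3368 CPM on days 2, 5 and 11, that of 6 trophectoderm markers was 507, 1196 and 613 CPM, and that of 5 endoderm markers was 7.38, 24.9 and 123 CPM. Whether these have a part in the pattern was not tested.

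**Figure D4:**
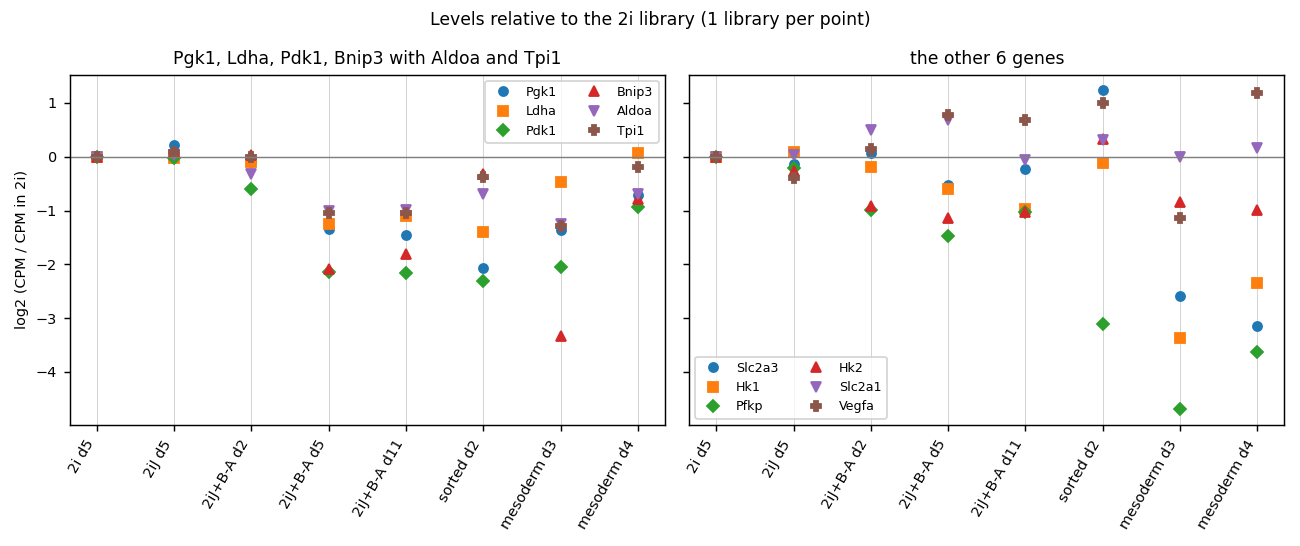
Log2 ratio of CPM in each library to CPM in the 2i library (y axis) for Pgk1, Ldha, Pdk1 and Bnip3 with Aldoa and Tpi1 (left) and for the other 6 genes (right), 1 point for each library. The 6 genes on the left lay lower on days 5 and 11 of 2iJ+B-A than on day 2, and on the right Slc2a3, Hk1 and Pfkp lay lowest in mesoderm.

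The sorted Cdx2-GFP-positive cells were compared with 2iJ+B-A, the condition from which they were taken and whose libraries also stand in the comparisons above. Slc2a3 and Hk2 rose, 2 of 10 genes against 3.34% of all genes, and 0 fell against 2.08% (5.42% in either direction). Slc2a3 was at 3572 CPM in the sorted library and 1317 ± 265 CPM (SD, n = 3) in 2iJ+B-A, a log2 fold change of 1.49 ± 0.30 (SE; edgeR adjusted p = 0.0447). Hk2 was at 404 CPM against 157 ± 11.7 CPM (SD, n = 3), and its log2 fold change was 1.41 ± 0.17 (SE; adjusted p = 0.0153). Both calls were lost when any 1 of the 2iJ+B-A libraries was left out (adjusted p between 0.0507 and 0.146). The sorted group is 1 library, whose spread was taken from the other groups. It comes from day 2, whereas 2iJ+B-A was taken over days 2, 5 and 11. Relative to the day 2 library alone, with no test, the sorted library had 2.25 times the level of Slc2a3, 2.398 times that of Hk2, 1.81 times that of Vegfa, 1.05 times that of Hk1, 0.879 times that of Slc2a1 and 0.783 times that of Bnip3. The day 2 level was 4.37 times the sorted level for Pfkp, 3.92 times for Pgk1, 3.25 times for Pdk1 and 2.47 times for Ldha. The direction thus differed from the fitted one for Bnip3, whose log2 difference from 2iJ+B-A was 0.68 ± 1.08 (SE; edgeR adjusted p = 0.722).

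Other genes of the set lay low in the sorted library. Pfkp was at 52.8 CPM, Pgk1 at 213, Ldha at 581 and Pdk1 at 20.0 CPM, each below all 3 libraries of 2iJ+B-A, as were 41.7% of all genes. The lowest adjusted p-value among these was 0.0676 for Pfkp, with a log2 difference of -1.93 ± 0.48 (SE). Hk1 at 132 CPM and Vegfa at 72.9 CPM were above all 3 libraries, as were Slc2a3 and Hk2 and 33.5% of all genes. Bnip3 was at 111 CPM and Slc2a1 at 346 CPM, both within the range of 2iJ+B-A. Of the reads over Pfkp in this library, 15.0% were on the opposite strand. Per kilobase, Slc2a3 made up 80.3% of both transporters and Hk1 18.6% of both hexokinases. The summed level of 6 trophectoderm markers was 3813 CPM in the sorted library and 507, 1196 and 613 CPM on days 2, 5 and 11 of 2iJ+B-A, with all 6 above all 3 of these libraries. Cdx2, on which the cells were sorted, is among them. That of 6 pluripotency markers was 2010.2 CPM against 2848, 2847 and 3368 CPM. Sox2, Nanog, Esrrb and Zfp42 were below all 3 libraries of 2iJ+B-A, and Pou5f1 (957 CPM) lay within their range. Klf4 was above all 3, at 209 CPM against 97.5, 148 and 134 CPM. The summed level of 4 fibroblast markers was 87.5 CPM in the sorted library and between 6.54 and 15.3 CPM in the others, with all 4 above all 3 libraries of 2iJ+B-A. The part of these markers in the values of the sorted library, like that of the share of unmapped reads, was not tested.

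The genes around the set were counted in the comparison of mesoderm with stem cell cultures, beside the 15.7% of all genes that were higher and 16.4% that were lower. Of 15 other glycolysis enzymes tested, 1 rose, 3 fell and 11 did not pass, with a median log2 difference of -0.50. Gapdh fell by 0.63 on the log2 scale (edgeR adjusted p = 0.0229) and Pgam1, the mutase after Pgk1, fell by 1.03 (adjusted p = 0.0163), whereas Eno3, the muscle enolase, rose by 1.06 (adjusted p = 0.0446). The difference in the main pyruvate kinase gene, listed as Pkm2, was -0.60 (adjusted p = 0.0838). These counts moved when a library was left out: 3 rose and 1 fell without the day 3 library, with a median of -0.004, and 0 rose and 2 fell without the day 4 library, with a median of -0.98. The rise of Eno3 was also lost without any 1 of the 2iJ+B-A libraries, when 0 rose and 2 to 4 fell, and with the unsorted stem cell libraries as a single group, when 0 rose and 1 fell.

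Of 16 genes of pyruvate and lactate handling, 4 rose, 2 fell and 10 did not pass, with a median of -0.04. Pdha1, a subunit of the pyruvate dehydrogenase complex that Pdk1 acts on, was at 1077 and 891 CPM in mesoderm and between 167 and 353 CPM in the unsorted stem cell libraries, and it rose by 1.69 on the log2 scale (edgeR adjusted p = 0.0028). Pdp1, a phosphatase that reverses the action of Pdk1, rose by 1.18 (adjusted p = 0.0285). The related phosphatase gene Pdp2 lay the other way, at 32.9 and 31.6 CPM in mesoderm and between 42.5 and 92.2 CPM in the unsorted stem cell libraries. Ldhb, the partner of Ldha, was at 153 and 105 CPM in mesoderm and between 237 and 621 CPM in the unsorted stem cell libraries, and it fell by 1.78 (adjusted p = 0.00328). Of 17 TCA cycle enzymes, 2 rose, 1 fell and 14 did not pass, with a median of 0.03, and 1 rose and 0 fell without the day 4 library or without day 5 of 2iJ+B-A. Without the day 4 library 1 gene of pyruvate and lactate handling rose and 2 fell, and without the day 3 library 4 rose and 4 fell.

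The genes of oxygen sensing went in both directions. Of 10 tested, 3 rose, 2 fell and 5 did not pass, with a median of 0.25. Hif1a was at 237 and 259 CPM in mesoderm and between 87.2 and 139.7 CPM in the unsorted stem cell libraries, and it rose by 1.01 on the log2 scale (edgeR adjusted p = 0.0127). Arnt2, a relative of Arnt, rose by 2.95 (adjusted p = 0.00198), whereas Arnt itself fell by 0.81 (adjusted p = 0.0199). Epas1 was at 7.89 and 10.9 CPM in mesoderm and between 29.8 and 232 CPM in the unsorted stem cell libraries, and it fell by 2.79 (adjusted p = 0.0442). Without the day 3 mesoderm library 3 of these genes rose and 0 fell, without that of day 4 2 rose and 1 fell, with a median of 0.15, and without day 5 of 2iJ+B-A 2 rose and 0 fell. HIF proteins are controlled mainly by their stability, which RNA levels do not show.

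Of 24 other hypoxia-response genes tested, 1 rose, 7 fell and 16 did not pass, with a median of -0.73 (-1.10 without the day 4 mesoderm library). Ddit4, an inhibitor of mTORC1 signalling, rose by 0.99 on the log2 scale (edgeR adjusted p = 0.0223). Among the genes that fell were Ak4, a mitochondrial adenylate kinase, by 3.88 (adjusted p = 0.00492), and Mxi1, by 1.63 (adjusted p = 0.0123). Ak4 was at 12.2 and 40.4 CPM in mesoderm and between 326 and 451 CPM in the unsorted stem cell libraries. Of the 8 VEGF ligands and receptors outside Vegfa, 3 rose and 0 fell, with a median of 1.41, and 5 rose without the day 3 library. Without the day 4 library the median was 0.31. The receptor gene Kdr, which is also among the mesoderm markers, was at 67.8 and 305 CPM in mesoderm and between 2.10 and 8.14 CPM in the unsorted stem cell libraries, and it rose by 5.52 (adjusted p = 0.00403). The co-receptor genes Nrp1 and Nrp2 rose by 5.40 and 2.49 (adjusted p = 0.0152 and 0.00498). Of 6 other glucose transporters tested, 3 rose and 1 fell, and each of these 4 had a mean level under 10 CPM in both groups. Without the day 4 library 2 rose and 0 fell.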

How the data were processed

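Strand-specific poly-A libraries were sequenced as read pairs by the authors, trimmed, and aligned to NCBIM37 with STAR 2.4.2a. The deposited files hold unnormalised STAR gene counts, 1 for each read pair. The reverse-strand column was used, in which 5.03% to 6.47% of strand-assigned counts lay on the other strand. The annotation release used by the authors is not given in the sources used here, and GENCODE vM1 named 37205 of 37620 genes. The study's correction between experiments made on separate days is not part of these counts.

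A single model of all 8 libraries was made in edgeR 4.0.16 (R 4.3.3), with 5 group coefficients and 3 residual degrees of freedom, TMM scaling and a filter of at least 10 counts in at least 2 libraries, which kept 16961 genes. P-values came from its quasi-likelihood test, and Benjamini-Hochberg adjusted values under 0.05 passed. Stem cell cultures were the mean of the 2i, 2iJ and 2iJ+B-A coefficients. Standard errors are the log2 fold change over the square root of F. DESeq2 1.42.0 was an alternative. CPM are shares of gene counts without TMM, and their 95% Wilson intervals cover counting error only. Tested on simulated counts of the mesoderm against stem cell comparison (16479 genes), the fit recovered 100% of 200 genes changed 4-fold, with 9 false calls. The simulated spread was smaller than that of the data, whose common coefficient of variation within groups was 0.363. It held no change between days, and genes of low level were not among those changed. The simulation therefore does not give the recovery or the false calls to be had at the spread of these data.

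All 10 genes are given in every tested comparison. From each list, up to 3 rising and 3 falling genes with an adjusted p-value under 0.05 and at least 10 CPM in the higher group could be named, together with genes of oxygen sensing, Gapdh, pyruvate kinase and VEGF receptors. Pdp2 was named beside Pdp1 after its values were seen. The 10 genes and the lists were chosen with earlier results of these data known. Alternatives were other scaling, no filter, unstranded counts, other groupings and leaving out each library.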

Additional observations from a re-analysis of the deposited data

Results flagged for a closer look

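Pfkp was singled out because reads on the strand opposite to it, which were counted only in the alternative that ignores strand, were frequent in some libraries. Their share was 47.1% in mesoderm on day 3, 31.4% in mesoderm on day 4 and 15.0% in the sorted library, against 5.03% to 6.47% over all genes of a library. In number, these reads were between 9.34 and 26.5 CPM in every library. Pitrm1 overlaps 372 bases of Pfkp on that strand, and the source of the reads was not tested.

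Vegfa was singled out because the 2 mesoderm libraries stood on opposite sides of all 5 unsorted stem cell libraries, which lay between 27.8 and 62.7 CPM. The level was 16.6 CPM on day 3 and 83.0 CPM on day 4. This difference between the days was not tested, since there was 1 library on each, and the Wnt-secretion inhibitor present on the last day cannot be told apart from the day.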

How the results depend on the processing

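No paired analysis was possible because the labels give no replicate numbers shared between groups. For the comparison of mesoderm with stem cell cultures, 5437 genes passed, and 3584 to 5440 when 1 library was left out. Of the 10 genes, 4 passed, and 3 to 4 with a library left out. Against 2iJ+B-A alone 4584 genes passed, and 2019 to 4538 with a library left out. For the sorted cells 919 genes passed, against 2697 with DESeq2, 1390 with no filter, 1911 with only the groups compared, and 37 to 2052 with a library left out. Of the 10 genes, 2 passed there, and 0 to 3 with a library left out. For 2iJ+B-A against 2i and 2iJ, 3 genes passed, against 1014 with DESeq2, 151 with no filter, 145 with only the groups compared, 150 with 2i and 2iJ as 1 group, and 0 to 185 with a library left out. Of the 10 genes, 0 passed in it, and 2, 1 and 1 did with DESeq2, with no filter and with 2i and 2iJ as 1 group.

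Among the 10 genes, some log2 differences changed sign when 1 library was left out. Between mesoderm and stem cell cultures, the range over these analyses was -0.165 to 0.045 for Slc2a1, -0.24 to 0.333 for Ldha and -1.198 to 1.153 for Vegfa, with the highest value without mesoderm day 3 and the lowest without mesoderm day 4. Ldha was also at -0.006 without day 5 of 2iJ+B-A. Between mesoderm and 2iJ+B-A it was -0.506 to 0.417 for Pgk1, -2.355 to 0.418 for Bnip3, -0.587 to 0.787 for Pdk1 and -1.651 to 0.699 for Vegfa. Leaving out mesoderm day 3 turned Pgk1 (0.172), Bnip3 (0.227) and Vegfa (0.699), leaving out mesoderm day 4 turned Pdk1, leaving out day 2 of 2iJ+B-A turned Pgk1 and Bnip3, and leaving out days 5 and 11 turned Pdk1 (-0.179 and -0.173) and Vegfa (0.05 and 0.019). Between sorted cells and 2iJ+B-A it was -0.223 to 0.093 for Slc2a1, which was at 0.025 without day 2. The cause was not tested. None of these genes passed the test with all libraries.

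With 1 library for each day or condition, differences between days, between 2i and 2iJ, and of the sorted cells carry no replicate spread of their own, and with 3 residual degrees of freedom a p-value that misses the threshold does not show that levels were equal.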
